A study of Mus musculus with 20 samples.

Results

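The mitochondrial ribosomal protein genes are the nuclear genes with an Mrpl or Mrps symbol, whose products are made in the cytosol and imported into mitochondria. All protein-coding genes of the deposited table with such a symbol, a number and at most a letter a, b or c were taken. This rule used no measured value, but the family was chosen with earlier results of these data known. The genes taken numbered 77 of 20636 genes in the table, and all 77 passed the minimum level for testing. The annotation lists 78 such symbols, of which Mrpl53 was not analysed here.

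RNA was sequenced from whole pancreatic ductal adenocarcinomas of mice whose homozygous tdTomato reporter (Rosa26LSL-tdTomato/LSL-tdTomato) was switched on by Ptf1aCreER, a tamoxifen-inducible Cre recombinase driven from an acinar cell gene. KPT mice were also Trp53fl/fl, KAT mice were Arf-fl/fl at the Cdkn2A-Arf locus, and KPAT mice carried both floxed genes, with 5 tumours in each of the 3 groups. Oral tamoxifen (5 mg, daily for 3 days) was given when the mice were 8 to 10 weeks old, and tumours were taken once mice became morbid, at an age the labels do not give, as with the strain. The labels number the tumours without naming animals, so p-values measure the spread between these samples, and the 5 KT samples, with neither suppressor floxed, are not analysed here. Cells that never expressed Ptf1a, such as stroma and immune cells, keep their floxed alleles unrecombined and contribute RNA to the whole tumour. In bulk RNA of this kind, fewer cells of a type and less RNA per cell cannot be told apart.

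The mitochondrial ribosome translates the few mRNAs encoded by mitochondrial DNA, all of which specify membrane subunits of the respiratory chain and ATP synthase. Its rRNAs come from mitochondrial DNA, while every protein comes from the nucleus, so its assembly joins products of both genomes. Some of its proteins descend from bacterial ribosomal proteins and others were acquired in mitochondria. The small subunit decodes mRNA and the large subunit forms peptide bonds. The names do not always follow the subunit, since the products of Mrps18a and Mrps30 sit in the large subunit, and the product of Mrps36 is now known as a part of the 2-oxoglutarate dehydrogenase complex.

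The promoters of these genes have no TATA box as a class and are known for binding sites of NRF1, GABP (an ETS-family factor), YY1 and SP1. RefSeq promoter windows of GRCm38.p6, 300 bases long from 250 before to 50 after a start site, matched 68 of the 77 genes with 74 windows. The windows were searched on both strands for the palindromic NRF1 consensus or GCGCATGC (both counted as NRF1), CCGGAAG (ETS), AAGATGGCG (YY1), CACGTG (E-box) and GGGCGG (SP), and both NRF1 patterns can overlap. The 250 upstream bases of 6 genes are shown so that genes lower in KAT and KPAT can be set beside genes that passed in neither comparison. They were chosen after the values were seen, from the 18 windows in which no annotated exon lies upstream of the start. Mrpl45 (chr11:97315466-97315715, plus strand), Mrps9 (chr1:42850983-42851232, plus strand) and Mrps14 (chr1:160194965-160195214, plus strand) were lower in both groups. Mrpl58 (chr11:115403502-115403751, plus strand), Mrps22 (chr9:98601680-98601929, minus strand) and Mrps2 (chr2:28467816-28468065, plus strand) passed in neither. Each sequence runs 5′ to 3′ on the gene's strand, ends at the base before the start site and carries whole motif matches in capitals.
Mrpl45: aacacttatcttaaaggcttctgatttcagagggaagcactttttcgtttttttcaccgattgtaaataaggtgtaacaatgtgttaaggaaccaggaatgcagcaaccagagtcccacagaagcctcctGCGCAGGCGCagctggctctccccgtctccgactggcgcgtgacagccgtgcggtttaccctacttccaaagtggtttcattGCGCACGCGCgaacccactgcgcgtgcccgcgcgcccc
Mrps9: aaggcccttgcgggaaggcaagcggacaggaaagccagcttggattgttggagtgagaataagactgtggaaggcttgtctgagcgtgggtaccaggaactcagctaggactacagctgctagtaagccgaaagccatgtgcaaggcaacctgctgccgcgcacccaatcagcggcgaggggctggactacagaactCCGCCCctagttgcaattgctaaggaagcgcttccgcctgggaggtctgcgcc
Mrps14: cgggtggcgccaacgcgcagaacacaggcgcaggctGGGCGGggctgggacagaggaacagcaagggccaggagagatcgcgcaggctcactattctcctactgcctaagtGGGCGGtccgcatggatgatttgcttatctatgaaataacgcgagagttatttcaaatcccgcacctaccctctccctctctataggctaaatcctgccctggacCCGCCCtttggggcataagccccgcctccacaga
Mrpl58: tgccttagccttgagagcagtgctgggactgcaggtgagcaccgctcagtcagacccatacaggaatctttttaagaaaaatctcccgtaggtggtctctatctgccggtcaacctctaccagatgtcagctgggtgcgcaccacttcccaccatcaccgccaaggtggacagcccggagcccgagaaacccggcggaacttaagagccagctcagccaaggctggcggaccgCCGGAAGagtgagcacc
Mrps22: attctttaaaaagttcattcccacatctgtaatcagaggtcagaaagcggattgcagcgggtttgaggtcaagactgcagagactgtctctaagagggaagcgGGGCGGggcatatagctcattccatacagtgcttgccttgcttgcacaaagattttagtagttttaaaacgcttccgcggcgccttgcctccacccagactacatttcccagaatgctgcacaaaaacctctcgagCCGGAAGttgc
Mrps2: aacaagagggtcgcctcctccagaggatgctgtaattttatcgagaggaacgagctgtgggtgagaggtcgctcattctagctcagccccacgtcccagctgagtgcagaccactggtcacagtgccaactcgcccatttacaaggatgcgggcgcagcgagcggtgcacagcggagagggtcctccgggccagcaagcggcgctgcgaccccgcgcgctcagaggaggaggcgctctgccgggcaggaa

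Capitals mark NRF1 matches that begin 120 and 38 bases before the Mrpl45 start, an SP match 53 bases before that of Mrps9, and SP matches 214, 139 and 34 bases before that of Mrps14. Among the genes that did not pass, Mrpl58 holds an ETS match 17 bases before its start and Mrps22 holds an SP match 147 and an ETS match 11 bases before its start. Mrps2 has no match in its window. A match begins in Mrps9 (NRF1, 5 bases before the start) and in Mrpl58 (ETS, 2 bases before) and runs past the start site, so it is left in lower case. Mrpl45 holds a further NRF1 match that begins 15 bases after its start, outside the bases shown. Over all windows of these genes, 23.0% held an NRF1 pattern, against 10.4% of the 15911 windows of protein-coding genes in the table and 6.13% of all 32851 windows. The ETS pattern was in 33.8%, against 14.4% of protein-coding and 8.86% of all windows, and the YY1 pattern in 10.8%, against 2.39% and 1.40%. The SP pattern was in 52.7%, under the 56.8% of protein-coding windows and over the 35.7% of all windows. The E-box was in 9.46%, against 8.99% and 7.15%. Windows of genes lower in either comparison and windows of the other members held these patterns in 21.6% and 24.3% for NRF1, 29.7% and 37.8% for ETS, and 10.8% in each for YY1. These shares are descriptions of letters in a window, with no test.

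Facts of the whole series that bear on these genes are few. Libraries held 14696138 to 26248484 gene reads, and the members had from 66 to 2174 reads each per library. Trp53, the gene of p53, was at 22.7, 23.5, 26.3, 26.1 and 22.8 in KPT, 127, 111, 98.99, 138 and 148 in KAT and 57.2, 44.7, 32.9, 36.6 and 38.3 in KPAT. KAT, whose Trp53 is not floxed, was the highest throughout, and KPAT lay above KPT (log2 fold change 0.76, adjusted p = 0.00560, limma). Cdkn2a was counted over the whole gene, so undeleted exons contribute, and its ranges were 216 to 335 (KPT), 149.98 to 689.9 (KAT) and 268 to 907 (KPAT), which checks nothing of the deletion. Levels throughout are in the authors' deposited normalized units, of which 1 unit equals 14.9 to 27.0 reads, depending on the library. The ductal marker Krt19 ranged over 1334 to 3119 (KPT), 736 to 1329.7 (KAT) and 1024 to 1849.6 (KPAT). This ductal gene was thus expressed in every tumour, and every KAT value lay below every KPT value. Library numbers of the 3 groups fall in separate ranges, so genotype and any technical difference that goes with those ranges cannot be told apart.

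Mitochondrial ribosomal protein genes were lower in KAT tumours than in KPT tumours. Of the 77 genes, 38 fell and 0 rose at an adjusted p under 0.05 (limma on log2 of the normalized count plus 1, Benjamini-Hochberg over 16648 genes). That is 49.4% of the members lower, where 13.3% of all tested genes were lower and 15.6% were higher. The median log2 fold change was -0.41 over the members, a ratio of 0.751, and 0.03 over all tested genes. A lower fitted value was found in 70 of 77 members against 48.4% of all tested genes. In 33 members, 42.9%, every KAT tumour lay below every KPT tumour, which held for 8.38% of all tested genes in that direction.

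In KPAT tumours 20 of the 77 genes fell against KPT and 0 rose, or 26.0%, where 7.40% of all tested genes were lower and 9.13% higher. The members' median was -0.25, a ratio of 0.842, against 0.02 over all tested genes, and 58 of 77 had a lower fitted value. Every KPAT tumour lay below every KPT tumour for 13 members, 16.9%, against 4.93% of all tested genes. Both comparisons share the KPT tumours. Of the 20 genes lower in KPAT 19 were also lower in KAT, and these were 19 of the 38 lower in KAT. Mrpl23 was the member that passed in KPAT and not in KAT, and 38 members passed in neither. In 53 members the group means followed the order KAT, KPAT, KPT from low to high.

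**Figure D1:**
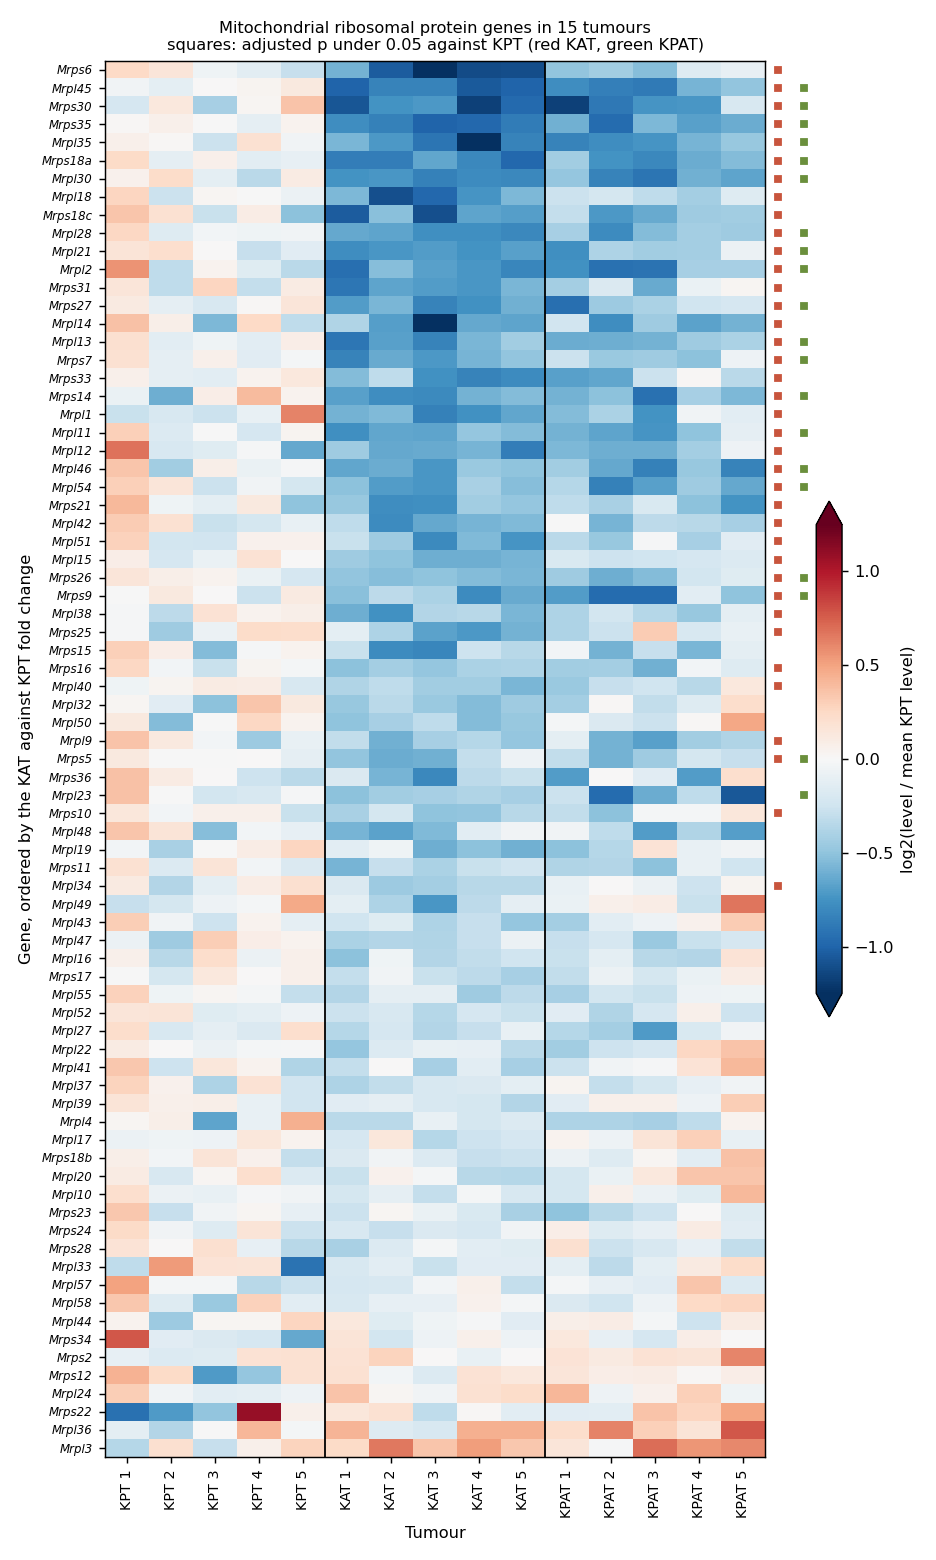
Heat map of the 77 genes (rows, ordered by the KAT against KPT log2 fold change) in the 15 tumours (columns), with colour for log2 of the level over the mean KPT level and squares on the right for an adjusted p under 0.05 against KPT. Most rows are blue in KAT, where 38 genes passed, and fewer in KPAT, where 20 passed, and the bottom rows, from Mrps34 to Mrpl3, have KAT fold changes above 0.

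The members' joint level, the mean of log2(normalized count + 1) over the 77 genes, was 9.46, 9.22, 9.22, 9.32 and 9.26 in the KPT tumours in label order. It was 8.91, 8.92, 8.83, 8.91 and 8.90 in KAT and 9.01, 8.96, 8.998, 9.12 and 9.22 in KPAT. All KAT tumours lay below all KPT tumours, and KPAT lay between them, with KPAT 5 as high as the lowest KPT tumours. As a share of all gene reads the members took 0.269% ± 0.0127 (SD, n = 5) in KPT, 0.215% ± 0.0104 in KAT and 0.234% ± 0.0135 in KPAT. Shares ran from 0.249% to 0.282% (KPT), 0.201% to 0.227% (KAT) and 0.221% to 0.249% (KPAT). No test was made of these summed values.

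**Figure D2:**
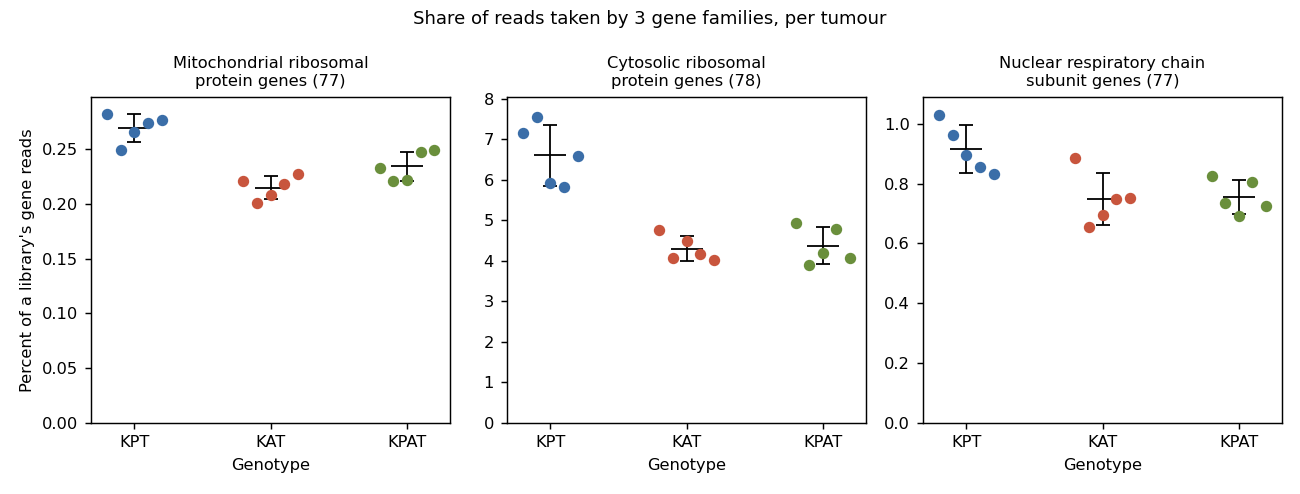
Percent of each library's gene reads taken by mitochondrial ribosomal protein genes, cytosolic ribosomal protein genes and nuclear respiratory chain subunit genes, with a point per tumour, the group mean and SD bars (n = 5). The mitochondrial ribosomal genes took 0.249% to 0.282% in KPT and 0.201% to 0.227% in KAT, and the cytosolic ribosomal genes took 5.83% to 7.56% in KPT and 4.03% to 4.75% in KAT.

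Tumours within a group differed in these genes. KPT 1 was the highest of its group for 41 of the 77 members, 53.2%, against 23.1% of all tested genes, and KPAT 5 was the highest of its group for 40 members, 51.9%, against 23.5%. KPT 1 also had the highest joint level of intestinal markers in its group, 11.89 against 8.76 to 10.20 on the mean log2 scale. Its joint level of ductal markers was the highest of KPT too, 14.01 against 13.14 to 13.43, among other lists. KAT 1 stood out in its group for intestinal markers, at 11.88 against 6.29 to 6.89. The members' joint level in KAT 1 was 8.91, within the KAT range of 8.83 to 8.92. The part of those markers in the result was not tested. Without KPT 1 and KAT 1 28 members were lower in KAT and 13 in KPAT, with medians of -0.37 and -0.20. Over all tested genes 1555 and 804 were then lower, against 2206 and 1232 with all tumours. KPT 3, KAT 2 and KPAT 5 held the most reads of the mitochondrial rRNAs. Without them 35 members were lower in KAT and 17 in KPAT, among 1882 and 819 genes in all. The median coefficient of variation of the members was 15.1% in KPT, 9.45% in KAT and 15.3% in KPAT, against 27.9%, 21.6% and 24.01% over all tested genes. The widest was that of Mrps22, a small subunit protein, in KPT, at 65.4%, where KPT 4 was at 29.9 and the other tumours at 7.37 to 14.7.

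Falls were spread over both subunits and both evolutionary origins. Among large subunit proteins of bacterial ancestry 14 of 30 fell in KAT and 8 of 30 in KPAT, with medians of -0.39 and -0.26. Large subunit proteins found only in mitochondria fell in 9 of 20 and 5 of 20 cases, with medians of -0.39 and -0.21. In the small subunit, 9 of 16 genes of bacterial ancestry fell in KAT and 4 of 16 in KPAT, with medians of -0.42 and -0.31. For the 10 small subunit genes particular to mitochondria the counts were 6 and 3, with medians of -0.50 and -0.24. In this order the shares were 46.7%, 45.0%, 56.2% and 60.0% in KAT and 26.7%, 25.0%, 25.0% and 30.0% in KPAT. Beside them stand 49.4% and 26.0% of all members and 13.3% and 7.40% of all tested genes. Mrps36, the gene whose product is not in the ribosome, did not pass in either comparison (log2 fold change -0.41, adjusted p = 0.146 in KAT, and -0.24, adjusted p = 0.452 in KPAT, limma).

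**Figure D3:**
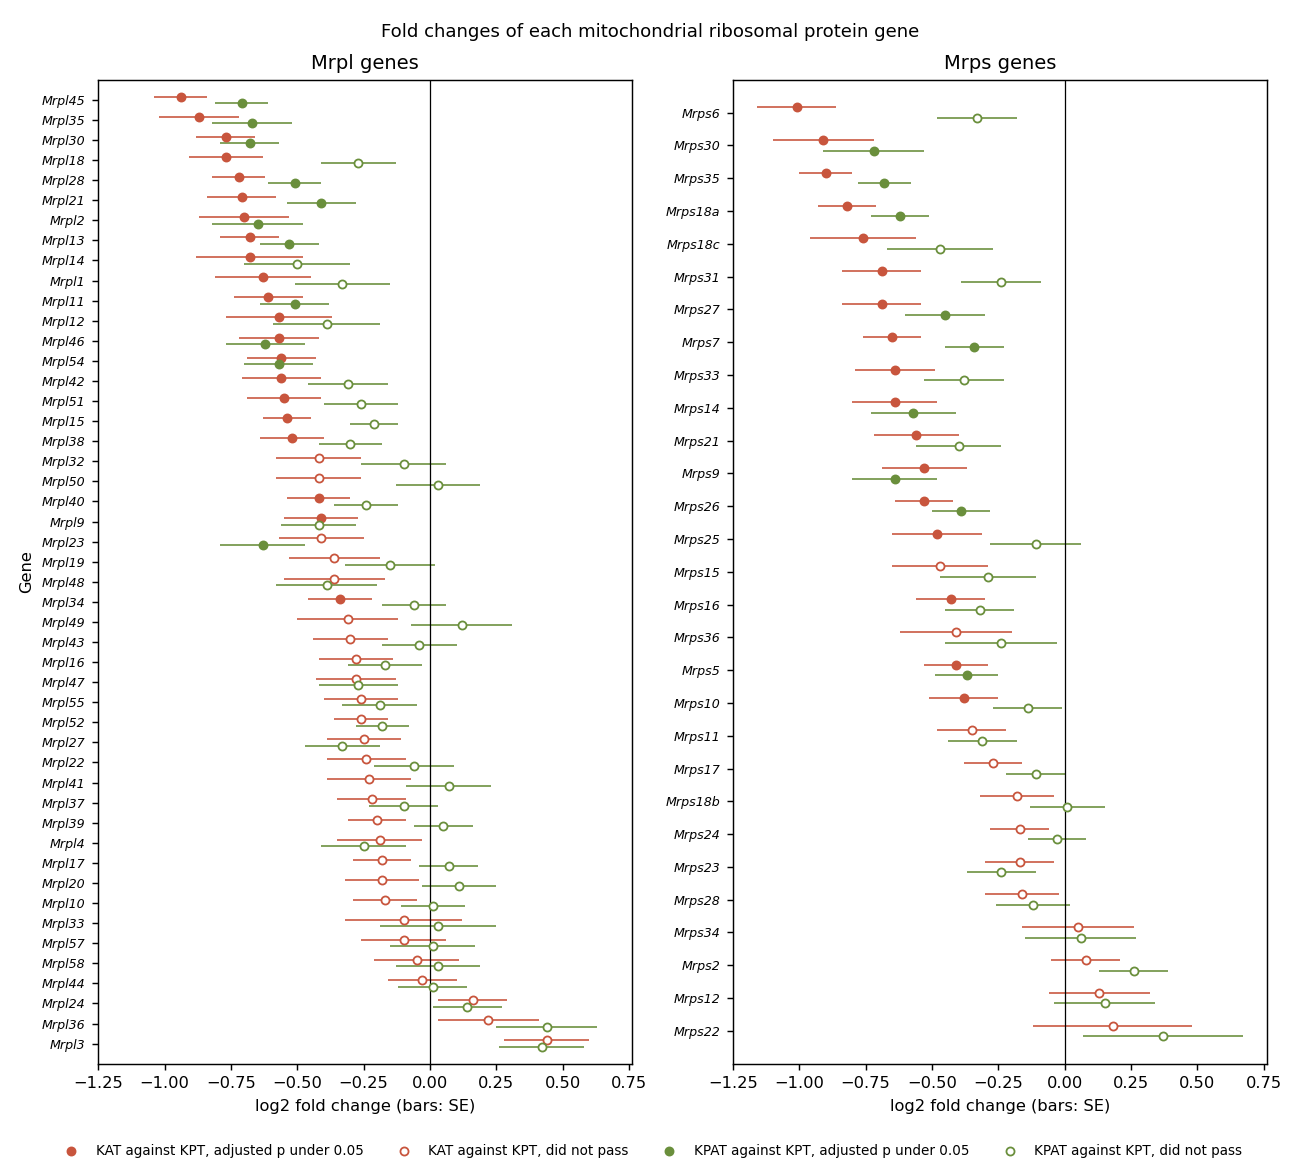
Log2 fold change against KPT with its standard error for every Mrpl gene (left) and Mrps gene (right), in KAT (red) and KPAT (green), with filled points for an adjusted p under 0.05. Points lie mostly left of 0, from -1.01 for Mrps6 in KAT to 0.44 for Mrpl3 in KAT and Mrpl36 in KPAT, and no filled point lies right of 0.

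At the exit of the large subunit, where the nascent chain meets the inner membrane, Mrpl45 had the smallest p of all members in both comparisons. The gene lies on chromosome 11 (97315716 to 97329920, GRCm38), and its product anchors the ribosome to the membrane. Mrpl45 was at 65.3, 62.03, 67.7, 68.9 and 73.5 in KPT, 33.8, 37.8, 37.9, 32.7 and 33.7 in KAT and 39.4, 37.3, 36.7, 45.2 and 47.9 in KPAT. Every KPT tumour was above every other tumour, and KAT and KPAT overlapped. The log2 fold change was -0.94 ± 0.10 (SE) in KAT (adjusted p = 9.94e-05, limma) and -0.71 ± 0.10 in KPAT (adjusted p = 0.00183). Of the 8 tested genes whose products line the exit, 1 fell in KAT and 2 in KPAT, with medians of -0.22 and -0.02. These are 12.5% and 25.0%, beside 49.4% and 26.0% of all members and 13.3% and 7.40% of all tested genes.

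The other exit gene that fell in KPAT was Mrpl23, whose product lines the tunnel mouth where membrane insertion factors dock in bacteria. Mrpl23 was at 68.1, 52.6, 45.1, 46.1 and 52.1 in KPT, 36.9, 39.1, 39.6, 40.7 and 39.5 in KAT and 43.8, 27.05, 34.4, 42.4 and 25.4 in KPAT. KPT lay above KAT and above KPAT without overlap, and KPAT was the more scattered group, with KPAT 2 and KPAT 5 lowest. The log2 fold change was -0.63 ± 0.16 in KPAT (adjusted p = 0.0166, limma; 0.0513 with only these groups fitted) and -0.41 ± 0.16 in KAT (adjusted p = 0.0613). Of all members it had the lowest KPAT against KAT value, -0.21 (adjusted p = 0.655), which did not pass.

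Several core proteins of the large subunit that also exist in bacteria fell in both groups. Mrpl28 was at 77.95, 58.2, 63.3, 62.5 and 63.1 in KPT, 41.6, 41.3, 38.2, 38.2 and 37.1 in KAT and 48.9, 37.6, 44.8, 48.6 and 47.9 in KPAT. KPT 1 was the highest, and KPT did not overlap with KAT or KPAT. It fell, with log2 fold changes of -0.72 ± 0.10 in KAT (adjusted p = 0.000399) and -0.51 ± 0.10 in KPAT (adjusted p = 0.00675, limma). Mrpl13, a protein of the solvent side, was at 75.4, 59.9, 63.6, 60.1 and 69.8 in KPT, 35.2, 41.01, 36.8, 44.2 and 48.7 in KAT and 42.7, 43.1, 43.7, 48.4 and 50.1 in KPAT. All KPT tumours were again above the rest, with log2 fold changes of -0.68 ± 0.11 (adjusted p = 0.000771) and -0.53 ± 0.11 (adjusted p = 0.00779, limma).

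Mrpl30 and Mrpl35 belong to the same bacterial-type set. Mrpl30 was at 69.98, 79.5, 62.2, 53.7 and 72.4 in KPT, 40.3, 40.7, 37.7, 39.3 and 38.7 in KAT and 48.2, 37.97, 36.02, 44.7 and 42.7 in KPAT. KAT tumours lay within a narrow band, 39.3 ± 1.20 (SD, n = 5), well under the 67.6 ± 9.90 of KPT. The fold changes on the log2 scale were -0.77 ± 0.11 in KAT (adjusted p = 0.000493) and -0.68 ± 0.11 in KPAT (adjusted p = 0.00308, limma). Mrpl35 was at 33.2, 32.2, 26.4, 36.2 and 30.9 in KPT, 21.4, 19.3, 16.9, 12.6 and 17.8 in KAT and 17.8, 18.6, 19.1, 21.3 and 22.9 in KPAT. The groups KPT and KAT, and KPT and KPAT, did not overlap, with log2 fold changes of -0.87 ± 0.15 (adjusted p = 0.000971) and -0.67 ± 0.15 (adjusted p = 0.00872, limma).

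The stalk of the large subunit recruits translation factors and holds Mrpl10, Mrpl11 and Mrpl12, with Mrpl54 close to its base. Of the 4 tested genes of this region 3 fell in KAT and 2 in KPAT. Beside them stand 49.4% and 26.0% of all members and 13.3% and 7.40% of all tested genes. With only 4 genes, a difference of the stalk from the other members cannot be read from these counts and was not tested. Mrpl11 was at 51.7, 37.5, 41.9, 36.3 and 43.2 in KPT, 24.7, 26.8, 26.7, 30.2 and 29.00 in KAT and 27.9, 26.6, 25.2, 29.7 and 38.9 in KPAT. All KAT tumours were below all KPT tumours, while KPAT 5 reached into the KPT range. The gene fell by 0.61 on the log2 scale in KAT (SE 0.13, adjusted p = 0.00437, limma) and by 0.51 in KPAT (SE 0.13, adjusted p = 0.0186), the latter lost without KPT 1 and KAT 1 together (-0.44, adjusted p = 0.0520). Mrpl54 was at 45.2, 40.9, 30.5, 35.6 and 31.6 in KPT, 25.8, 22.7, 22.3, 27.8 and 25.4 in KAT and 28.7, 20.5, 23.00, 27.04 and 23.7 in KPAT. KPT lay above both other groups without overlap, with log2 fold changes of -0.56 ± 0.13 (adjusted p = 0.00784) and -0.57 ± 0.13 (adjusted p = 0.0123, limma).

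Mrpl10, the base to which the stalk dimers attach, did not pass. It was at 37.8, 30.9, 30.5, 32.3 and 31.6 in KPT, 27.9, 30.2, 26.6, 32.1 and 28.4 in KAT and 27.9, 34.1, 30.95, 29.3 and 43.3 in KPAT. The groups overlapped, with log2 fold changes of -0.17 ± 0.12 in KAT (adjusted p = 0.329) and 0.01 ± 0.12 in KPAT (adjusted p = 0.977, limma), the latter turning sign under several alternatives. Mrpl12, the stalk dimer protein, was at 41.8, 22.7, 23.5, 25.9 and 16.8 in KPT, 19.2, 16.7, 16.9, 17.4 and 14.3 in KAT and 17.7, 17.04, 17.1, 19.4 and 24.9 in KPAT. KPT 1 was far above the other KPT tumours and KPT 5 lay within the KAT range. The KAT log2 fold change of -0.57 ± 0.20 passed narrowly (adjusted p = 0.0439, limma), and the call was lost without any of 12 single tumours, for example without KPT 1 (-0.38, adjusted p = 0.0956) or KAT 5 (-0.51, adjusted p = 0.0971). KPAT did not pass (-0.39, adjusted p = 0.188).

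Mrps30 and Mrps18a carry small subunit names and work in the large subunit. Mrps30 was at 23.1, 29.2, 19.97, 27.2 and 34.1 in KPT, 12.7, 15.9, 16.2, 11.9 and 13.6 in KAT and 11.9, 14.4, 15.97, 16.1 and 23.2 in KPAT. It had the largest fall of all members in KPAT, -0.72 ± 0.19 (adjusted p = 0.0182, limma), although KPAT 5 overlapped with the lower KPT tumours, and it fell by 0.91 on the log2 scale in KAT (adjusted p = 0.00299). Mrps18a was at 58.7, 45.8, 51.8, 45.4 and 46.2 in KPT, 27.3, 27.2, 31.7, 28.4 and 25.1 in KAT and 36.7, 29.5, 28.3, 32.3 and 34.00 in KPAT. Its KPT tumours were above all others, with log2 fold changes of -0.82 ± 0.11 in KAT (adjusted p = 0.000299) and -0.62 ± 0.11 in KPAT (adjusted p = 0.00369, limma).

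Mrps18a has a pair of paralogues in the small subunit, Mrps18c, the counterpart of the bacterial protein, and Mrps18b. Mrps18c was at 9.43, 8.44, 6.10, 7.88 and 5.21 in KPT, 3.61, 5.16, 3.45, 4.70 and 4.61 in KAT and 6.01, 4.52, 4.80, 5.43 and 5.47 in KPAT. All KAT tumours were below all KPT tumours by a small margin, and KPAT overlapped with KPT. In KAT the fold change was -0.76 ± 0.20 on the log2 scale (adjusted p = 0.0124, limma), lost without KPT 1 and KAT 1 together (-0.61, adjusted p = 0.0673), and KPAT did not pass (-0.47 ± 0.20, adjusted p = 0.123). Mrps18b was at 15.2, 14.1, 16.1, 14.9 and 11.7 in KPT, 12.7, 14.00, 12.8, 11.8 and 11.97 in KAT and 13.7, 12.9, 14.6, 13.1 and 18.5 in KPAT. The 3 groups overlapped and neither comparison passed (-0.18, adjusted p = 0.335 in KAT, and 0.01, adjusted p = 0.959 in KPAT). Part of both genes is shared with neighbours, 23.2% of the exons of Mrps18c and 30.5% of those of Mrps18b, and whether the counting used strand is not stated in the labels. The differences between the paralogues were not tested.

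**Figure D4:**
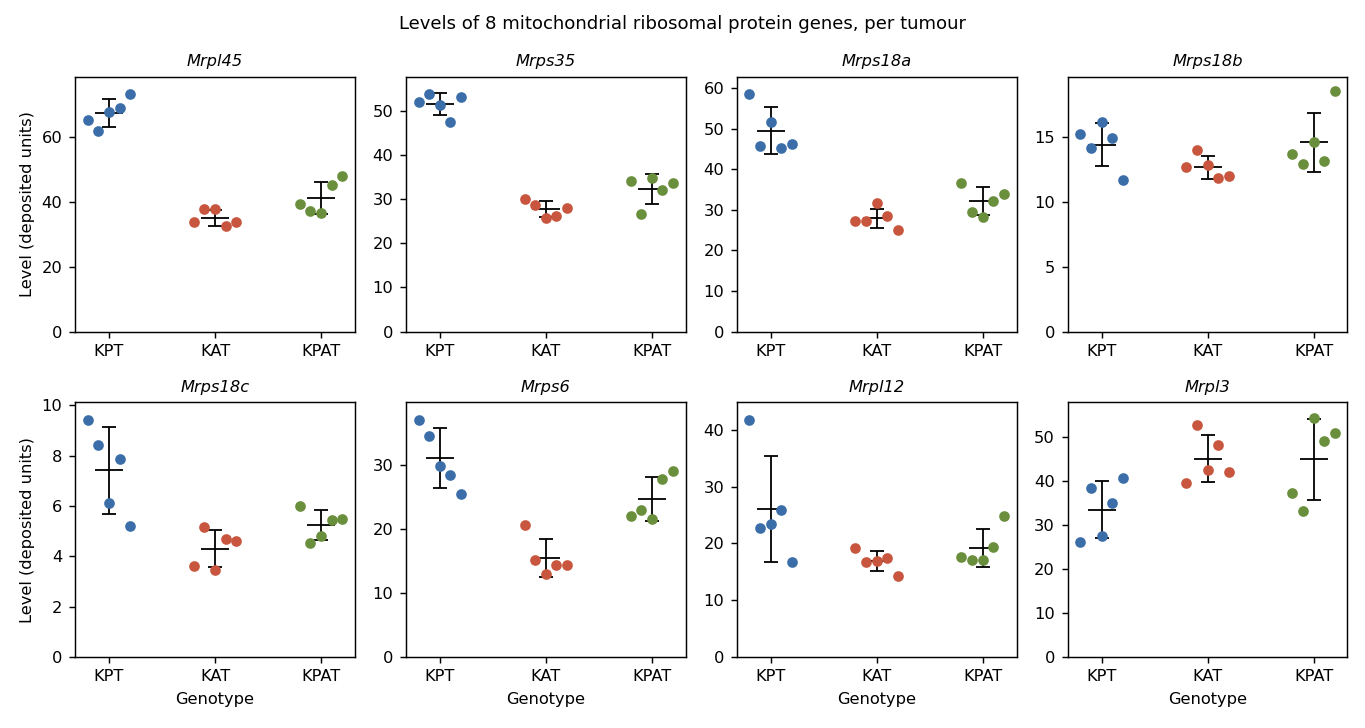
Levels of 8 genes in deposited normalized units, with a point per tumour and the mean and SD of each group (n = 5). Mrpl45, Mrps35 and Mrps18a separate KPT from the other groups, Mrps6 separates KAT from KPAT (12.9 to 20.6 against 21.5 to 29.0), and Mrps18b and Mrpl12 overlap.

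In the small subunit, Mrps35 had the next smallest p of all members after Mrpl45 in both comparisons. The gene lies on chromosome 6 (147042764 to 147073991), and its protein has no bacterial counterpart. Mrps35 was at 51.9, 53.7, 51.3, 47.5 and 53.1 in KPT, 30.04, 28.7, 25.7, 26.03 and 28.01 in KAT and 33.99, 26.5, 34.8, 32.1 and 33.6 in KPAT. The tightness of the groups, 51.5 ± 2.42 in KPT, 27.7 ± 1.83 in KAT and 32.2 ± 3.35 in KPAT (SD, n = 5), left a wide gap between KPT and the rest. These gaps gave log2 fold changes of -0.90 ± 0.10 in KAT (adjusted p = 0.000116) and -0.68 ± 0.10 in KPAT (adjusted p = 0.00190, limma).

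The promoter sequences of Mrps9 and Mrps14, both small subunit proteins of bacterial ancestry, were shown above. Mrps9 was at 56.4, 61.6, 56.6, 46.8 and 61.2 in KPT, 39.4, 44.97, 42.9, 32.8 and 36.4 in KAT and 34.8, 28.97, 28.99, 51.6 and 39.9 in KPAT. KAT lay below KPT throughout, and KPAT 4 reached above the lowest KPT tumour. Its log2 fold change was -0.53 ± 0.16 in KAT (adjusted p = 0.0210), lost without KAT 4 (-0.46, adjusted p = 0.0574) or KPT 1 and KAT 1 (-0.53, adjusted p = 0.0581), and -0.64 ± 0.16 in KPAT (adjusted p = 0.0138, limma). Mrps14 was at 35.7, 24.9, 40.2, 49.7 and 39.03 in KPT, 23.7, 22.2, 21.9, 25.1 and 26.03 in KAT and 25.1, 26.6, 19.9, 28.5 and 25.6 in KPAT. KPT 2 lay within the KAT and KPAT ranges, with log2 fold changes of -0.64 ± 0.16 (adjusted p = 0.00902) and -0.57 ± 0.16 (adjusted p = 0.0265, limma). The KPAT call of Mrps14 was lost without KPT 3 (-0.54, adjusted p = 0.0533), KPT 4 (-0.46, adjusted p = 0.0529) or KPAT 3 (-0.48, adjusted p = 0.0654), among other alternatives.

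The genes without a fall include Mrpl3, a bacterial-type protein near the peptidyl transferase centre. Mrpl3 was at 26.1, 38.5, 27.4, 34.96 and 40.7 in KPT, 39.6, 52.9, 42.6, 48.2 and 42.2 in KAT and 37.3, 33.2, 54.3, 49.05 and 50.9 in KPAT. It had the highest KAT fold change of all members, 0.44 ± 0.16 (adjusted p = 0.0557, limma), which did not pass, and KPT 5 overlapped with KAT. Mrpl36, a very small bacterial-type protein, was at 19.6, 16.6, 21.3, 28.6 and 20.98 in KPT, 28.8, 19.2, 18.6, 29.1 and 29.2 in KAT and 24.9, 32.9, 26.3, 23.95 and 36.7 in KPAT. Its log2 fold change of 0.44 ± 0.19 in KPAT was the largest there and did not pass (adjusted p = 0.121), and the groups overlapped. Mrpl58, which releases peptides from stalled ribosomes, was at 23.8, 16.9, 13.7, 23.03 and 17.2 in KPT, 16.4, 17.6, 17.6, 19.6 and 18.6 in KAT and 16.7, 15.9, 18.1, 22.5 and 22.7 in KPAT. Its groups overlapped entirely (-0.05, adjusted p = 0.849 in KAT, and 0.03, adjusted p = 0.908 in KPAT, limma).

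Levels compared between genes are given per kilobase of exon. Mrpl34 had the highest mean over all tumours, 60.8 units per kilobase, with 66.7 in KPT, 52.4 in KAT and 63.3 in KPAT. Mrpl52 was next, at 58.7, and was above it in KAT, at 54.1. Mrpl33 was the lowest, at 1.88, 1.65 and 1.83. The exon length is that of all annotated transcripts together, so a gene with unused long exons comes out low. Mrpl34 itself was at 43.9, 31.5, 37.1, 43.3 and 46.6 in KPT, 35.7, 29.6, 30.2, 31.8 and 31.9 in KAT and 37.9, 40.5, 38.5, 33.95 and 41.4 in KPAT. Its groups overlapped. The KAT log2 fold change was -0.34 ± 0.12 (adjusted p = 0.0410, limma), a call lost without any of 7 single tumours, such as KPT 1 (-0.30, adjusted p = 0.0856) or KAT 3 (-0.32, adjusted p = 0.0836). The members' median exon length was 2533 bases against 4025 over all tested genes. Over the 77 members, the KAT fold change had Spearman coefficients of -0.08 with exon length, 0.13 with GC content and -0.07 with mean level, given as descriptions over genes of the same libraries.

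Between KPAT and KAT no member passed. limma called 0 higher and 0 lower, where it called 0.0360% of all tested genes higher and 0.0120% lower. At an unadjusted p under 0.05 14 members were higher and 0 lower, 18.2% and 0% against 4.79% and 6.01% of all tested genes. edgeR's quasi-likelihood test called 0 members in both directions, and 6 genes higher and 1 lower of all 16648. DESeq2 called 3 members higher and 0 lower, and 98 genes higher and 186 lower of all 16648. The members' median was 0.18. In 4 members, Mrpl15, Mrpl18, Mrpl50 and Mrps6, all KPAT tumours lay above all KAT tumours, 5.19% against 1.42% of all tested genes, and Mrpl50 was named here after its values were seen.

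Mrps6, a bacterial-type protein of the small subunit platform, had the largest KAT fall and the largest difference between KPAT and KAT. Mrps6 was at 36.97, 34.5, 29.8, 28.4 and 25.4 in KPT, 20.6, 15.1, 12.9, 14.3 and 14.4 in KAT and 21.97, 22.9, 21.5, 27.8 and 28.95 in KPAT. KAT 1 was the highest of KAT and still under every KPAT tumour, and KPAT overlapped with KPT. The log2 fold change was -1.01 ± 0.15 in KAT against KPT (adjusted p = 0.000528), -0.33 ± 0.15 in KPAT against KPT (adjusted p = 0.149) and 0.68 ± 0.15 in KPAT against KAT (adjusted p = 0.129, limma). Slc5a3 and another gene on the same strand share 30.3% of its exon bases, so its reads may include theirs.

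Mrpl15 and Mrpl18, large subunit proteins of bacterial ancestry, followed the same order. Mrpl15 was at 44.4, 36.2, 39.6, 47.4 and 41.9 in KPT, 30.7, 29.6, 27.4, 27.5 and 27.96 in KAT and 36.6, 35.1, 35.3, 36.2 and 37.2 in KPAT. KAT lay below both other groups, and KPAT lay at the lower end of KPT. The log2 fold change was -0.54 ± 0.09 in KAT against KPT (adjusted p = 0.00105), and 0.33 ± 0.09 in KPAT against KAT did not pass (adjusted p = 0.236, limma). Mrpl18 was at 30.05, 20.8, 25.4, 25.01 and 23.8 in KPT, 17.01, 11.7, 12.7, 15.02 and 16.97 in KAT and 20.8, 21.5, 20.1, 18.7 and 22.4 in KPAT. It fell in KAT by 0.77 on the log2 scale (adjusted p = 0.00128), and its KPAT against KAT value of 0.50 ± 0.14 did not pass (adjusted p = 0.212). For Mrps31, a small subunit protein particular to mitochondria, the values were -0.69 ± 0.15 in KAT against KPT (adjusted p = 0.00455) and 0.45 ± 0.15 in KPAT against KAT (adjusted p = 0.320).

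Other genes of mitochondrial translation were read from lists of their own. Among 6 mitochondrial ribosomal proteins with other kinds of symbol, the same 3 fell in both comparisons: Dap3, a GTP-binding protein of the small subunit, and Chchd1 and Aurkaip1, small proteins of the same subunit. Chchd1 was at 28.3, 33.3, 37.3, 33.4 and 30.96 in KPT, 22.8, 20.6, 20.5, 21.4 and 20.8 in KAT and 23.6, 22.5, 23.2, 23.6 and 25.7 in KPAT. KPT lay above both other groups, with log2 fold changes of -0.62 (adjusted p = 0.000748) in KAT and -0.46 (adjusted p = 0.00872, limma) in KPAT, the latter lost with a correction for exon length and GC content (-0.35, adjusted p = 0.141). For Dap3 they were -0.55 (adjusted p = 0.00208) and -0.34 (adjusted p = 0.0422), and for Aurkaip1 -0.46 (adjusted p = 0.00839) and -0.41 (adjusted p = 0.0260). The KPAT calls of both were lost without KPT 1 (-0.30, adjusted p = 0.0956 for Dap3 and -0.35, adjusted p = 0.0636 for Aurkaip1), among other single tumours.

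Of 27 assembly factors 5 fell and 2 rose in KAT, 18.5% and 7.41% beside 13.3% and 15.6% of all tested genes. In KPAT 2 fell and 1 rose, 7.41% and 3.70% beside 7.40% and 9.13%, and the medians were -0.22 and -0.08. Mpv17l2, an inner membrane protein needed for assembly, fell by 0.84 and 0.78 on the log2 scale (adjusted p = 0.00554 and 0.0153, limma), and Rcc1l, an assembly GTPase partner, by 0.73 and 0.51 (adjusted p = 0.00140 and 0.0181). The RNA helicase Dhx30 rose by 0.53 in KAT (adjusted p = 0.0132) and 0.44 in KPAT (adjusted p = 0.0492), and the KAT call was lost with the exon length and GC correction (0.27, adjusted p = 0.194). Without KPT 3, KAT 2 and KPAT 5 the KPAT call of Mpv17l2 was lost (-0.65, adjusted p = 0.0810). The KPAT call of Rcc1l was lost without KPAT 2 (-0.45, adjusted p = 0.0503) and that of Dhx30 without any of 13 single tumours, such as KPAT 3 (0.38, adjusted p = 0.112).

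Among 18 translation factors 2 fell and 2 rose in KAT, 11.1% each, and 0 fell and 1 rose (5.56%) in KPAT, shares under those of all tested genes. Mtfmt, the enzyme that formylates the initiator methionine, rose in both. Mtfmt was at 6.27, 8.82, 11.98, 11.1 and 8.60 in KPT, 19.03, 24.7, 21.1, 18.5 and 16.8 in KAT and 13.5, 15.1, 17.3, 23.6 and 17.1 in KPAT. KPT lay below both other groups without overlap, with log2 fold changes of 1.12 ± 0.19 (adjusted p = 0.00114) and 0.89 ± 0.19 (adjusted p = 0.00870, limma). The other calls of this list were Gatc (0.38, adjusted p = 0.0419), Mtif3 (-0.45, adjusted p = 0.0436) and Slirp (-0.70, adjusted p = 0.0291) in KAT, each lost without KPT 1 (0.38, adjusted p = 0.0661, -0.37, adjusted p = 0.104, and -0.61, adjusted p = 0.0696) and without other single tumours.

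Of 17 aminoacyl-tRNA synthetases of mitochondria 2 fell in KAT (11.8%) and 1 in KPAT (5.88%), again under the shares of all tested genes, with medians of -0.10 and 0.03. Vars2, the valine enzyme, fell by 1.00 on the log2 scale in KAT (adjusted p = 0.00339) and by 0.72 in KPAT (adjusted p = 0.0307, limma), the latter lost without KPT 3 (-0.61, adjusted p = 0.0707) or KPAT 2 (-0.62, adjusted p = 0.0807). Fars2 fell by 0.58 in KAT (adjusted p = 0.0475), a call lost without any of 10 single tumours, such as KPT 1 (-0.45, adjusted p = 0.118). Of 18 genes that express or regulate mitochondrial DNA, 2 rose and 2 fell in KAT, 11.1% each, and 2 rose (11.1%) and 1 fell (5.56%) in KPAT. Polrmt, the mitochondrial RNA polymerase, rose by 0.55 and 0.52 (adjusted p = 0.00436 and 0.0110), and its partner Tfb2m by 0.44 and 0.56 (adjusted p = 0.0123 and 0.00758). The Polrmt calls were lost with a correction for exon length and GC content (0.29, adjusted p = 0.149, in KAT and 0.39, adjusted p = 0.0845, in KPAT). Yy1, a zinc finger factor known to bind some promoters of mitochondrial genes, fell by 0.82 in both (adjusted p = 0.000255 and 0.00126), and the DNA helicase gene Twnk, which overlaps Mrpl43, fell by 0.57 in KAT (adjusted p = 0.00673).

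The products of the mitochondrial genome itself ranged widely. Of 12 mitochondrial mRNAs 2 fell in KAT and 0 in KPAT, 16.7% and 0% beside 13.3% and 7.40% of all tested genes. The medians were -0.29 and -0.09. Their joint level was 10.24 to 12.32 (KPT), 11.03 to 11.49 (KAT) and 10.80 to 11.97 (KPAT) on the mean log2 scale. The 2 that fell in KAT were mt-Atp6 (-1.46 ± 0.32, adjusted p = 0.00472) and mt-Co3 (-1.33 ± 0.35, adjusted p = 0.0111, limma). Neither mitochondrial rRNA passed, with joint levels of 11.79 to 14.47, 11.26 to 14.86 and 11.34 to 13.33 in the 3 groups.

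Genes of other families also fell. Of 77 tested cytosolic ribosomal protein genes 65 fell in KAT and 60 in KPAT, with medians of -0.76 and -0.66, and 0 rose in either. These are 84.4% and 77.9%, beside 49.4% and 26.0% of the members. Rpl21 fell by 1.03 and 0.95 on the log2 scale (adjusted p = 0.000116 and 0.00113, limma). Of 77 nuclear respiratory chain subunit genes 50 fell and 1 rose in KAT, and 28 fell and 0 rose in KPAT, with medians of -0.46 and -0.37. The shares that fell were 64.9% and 36.4%, also above those of the members. Cox4i1, a cytochrome c oxidase subunit, fell by 0.80 and 0.63 (adjusted p = 0.000548 and 0.00558), while Cox5a rose in KAT by 0.47 (adjusted p = 0.0276), a call lost without KPT 5 (0.35, adjusted p = 0.0558) or KAT 1 (0.39, adjusted p = 0.0687). No test was made of the members against these families.

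**Figure D5:**
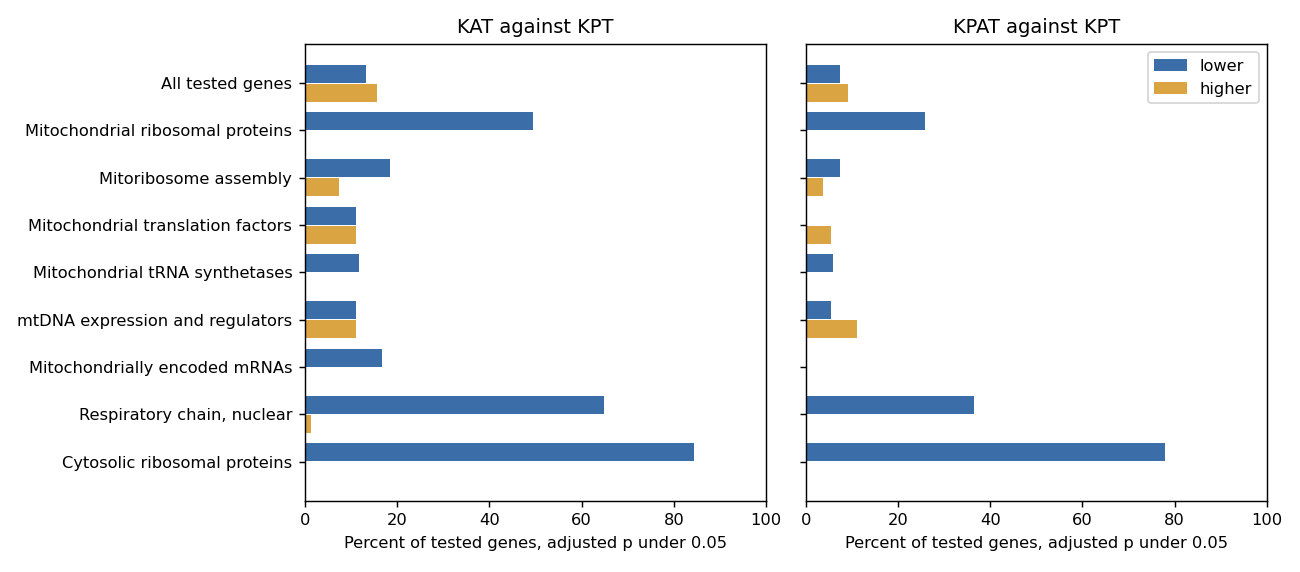
Percent of tested genes that were lower (blue) or higher (yellow) at an adjusted p under 0.05, for all tested genes and for 8 lists, in KAT against KPT (left) and KPAT against KPT (right). Mitochondrial ribosomal protein genes stand at 49.4% and 26.0% lower with 0 higher, where all tested genes stand at 13.3% and 7.40% lower.

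Markers of several cell types, the ductal type of the tumours among them, and of proliferation differed too. Over all tested genes 15.6% rose and 13.3% fell in KAT, and 9.13% rose and 7.40% fell in KPAT. All 13 fibroblast markers rose in KAT and 10 of 13 in KPAT, and their summed level was 1227 to 4943 (KPT), 7732 to 11192 (KAT) and 6387 to 16394 (KPAT). Of 15 ductal markers 7 fell in KAT and 3 in KPAT, with summed levels of 13213 to 22934, 8321 to 12893 and 9536 to 12227. Macrophage markers rose in 7 and 5 of 11 cases (806 to 1432, 1825 to 3304 and 1044 to 2071) and endothelial markers in 5 and 2 of 9 (165 to 274, 198 to 594 and 230.2 to 412). Of 15 proliferation genes 5 fell in KAT and 0 in KPAT, with summed levels of 457 to 809, 193 to 504 and 345 to 775. Of 7 intestinal markers 3 fell in each comparison, with medians of -2.12 in KAT and -2.03 in KPAT and summed levels of 1109.7 to 4842, 386 to 2327 and 426 to 1330.2. Of 11 acinar markers 0 passed in either comparison. In KAT 1 of 7 T cell, 1 of 6 B cell and 1 of 8 endocrine markers rose, and in KPAT 0 of each passed. Of 8 neutrophil markers 2 rose and 1 fell in KAT, and 1 rose and 1 fell in KPAT. The part of these cells and of proliferation in the members' fall was not tested.

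With the fibroblast level as a covariate, which does not overlap between KPT and the other groups, 3 members were lower in KAT and 0 in KPAT, and the medians were -0.46 and -0.28. In that fit 216 genes of all 16648 were lower in KAT and 1 in KPAT, against 2206 and 1232 without the covariate. With the ductal level as a covariate 18 and 4 members were lower, with medians of -0.34 and -0.21, among 948 and 201 genes in all.

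Many members share their promoter region with a gene on the other strand. Within 1000 bases of the start, 31 members had the start of a protein-coding gene on the opposite strand, and Mrpl46 and Mrps11 form such a pair of members on chromosome 7. Mrpl46 fell by 0.57 in KAT (adjusted p = 0.0112) and by 0.62 in KPAT (adjusted p = 0.0129, limma). The calls were lost without KPT 1 and KAT 1 (-0.46, adjusted p = 0.0523) and without KPT 3, KAT 2 and KPAT 5 (-0.55, adjusted p = 0.0642). Mrps11 did not pass (-0.35, adjusted p = 0.0612, and -0.31, adjusted p = 0.124). Of the 31 members 14 fell in KAT and 9 in KPAT, where 49.4% and 26.0% of all members fell. Of 28 tested partners that are not members, 8 fell and 0 rose in KAT, with a median of -0.36. In KPAT 3 of these partners fell and 1 rose, with a median of -0.17. Over all tested genes 13.3% fell and 15.6% rose in KAT, and 7.40% fell and 9.13% rose in KPAT.

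Both genes of a pair fell in 0 cases in KPAT and in 3 in KAT. In KAT 14 of the 31 members and 8 of the 28 tested partners fell. The 3 pairs were Mrpl2 with Klc4, Mrpl21 with Ighmbp2 and Mrpl40 with Hira. They were named after their values were seen, as were the pairs that follow. Their log2 fold changes in KAT were -0.70 and -0.71 (adjusted p = 0.00789 and 0.0113), -0.71 and -0.42 (adjusted p = 0.00172 and 0.0347) and -0.42 and -0.54 (adjusted p = 0.0166 and 0.0253, limma). The call of Ighmbp2 was lost without KAT 4 (-0.39, adjusted p = 0.0811) and that of Hira without KPT 4 (-0.44, adjusted p = 0.0600), among others. Fau, a cytosolic ribosomal protein gene 59 bases from Mrpl49, fell by 0.91 in KAT and 0.85 in KPAT (adjusted p = 0.00243 and 0.00830), while Mrpl49 did not pass (-0.31, adjusted p = 0.228, and 0.12, adjusted p = 0.71). Wdfy1, whose 5′ end overlaps that of Mrpl44, fell by 0.98 and 0.77 (adjusted p = 0.00238 and 0.0158), with Mrpl44 at -0.03 and 0.01 (adjusted p = 0.887 and 0.958). Zfp661, 128 bases from Mrps5, rose by 1.07 in KPAT (adjusted p = 0.0153), a call lost without KPT 3, KAT 2 and KPAT 5 (0.95, adjusted p = 0.0672). The differences within pairs were not tested.

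Reads of some members may come from other places. At least 20% of the 31-base words of Mrpl22, Mrpl27, Mrpl41 and Mrps36 occur in other annotated transcripts, mainly processed pseudogenes, and 10 members share at least 20% of their exon bases with a neighbour. Mrps34 overlaps Nme3 on its own strand and Mapk8ip3 on the other. None of the copies or overlaps of 20% or more belongs to Mrpl45, Mrps35, Mrps18a, Mrpl28 or Mrpl30.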

How the data were processed

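Per the labels' protocols, tumour RNA was purified with RNeasy midi columns, prepared with the TruSeq RNA kit and sequenced on a HiSeq4000. The submitters' processing notes name the aligner HISAT2 2.0.4 and the build mm10 (GRCm38). How genes were counted, with which annotation and strand setting, and how counts were normalized is not given in the sources used here. Per gene, the authors' deposited values are a normalized signal: multiplied by a factor per library, 100% came within 0.01 of whole reads. The design assumed the scale of reads, so all libraries were multiplied by 19.478. Of 20636 genes, 20574 IDs matched a GENCODE symbol.

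Log2(value + 1) of the 16648 genes with a mean of at least 10 was fitted with limma 3.58.1 (R 4.3.3; group means of all 15 tumours, eBayes with trend, two-sided, Benjamini-Hochberg at 0.05). A fold change on this scale understates that of low genes. The fit was tested on simulated counts with the same dispersion for every gene and folds larger than the members' medians. That test does not cover shifts as small as theirs. The members and lists were chosen with earlier results of these data known. Named members are, per comparison, up to 8 higher and 8 lower calls with the smallest p (with fewer than 4 calls, the 4 smallest p), the largest rise and fall, the S18 and stalk genes, and the extremes per kilobase. Other lists gave up to 2 per direction. Mrps9, Mrps14, Mrpl58, Mrps22, Mrps2, Mrpl2, Mrpl21, Mrpl40, Mrpl44, Mrpl46, Mrpl49, Mrpl50, Mrpl52, Mrps5, Mrps11 and the partner genes were named after their values were seen. Alternatives were pseudocounts of 0.5 and 8, no minimum or 50, the deposited scale, median-of-ratios and quantile scaling, the 2 groups alone, a replicate block, exon length and GC correction, marker covariates, eBayes without trend, edgeR 4.0.16, DESeq2 1.42.0 and leaving out each tumour. Leaving out KPT 1 with KAT 1, and KPT 3, KAT 2 and KPAT 5 together, was added after seeing the data. Tables and plots used Python 3.11.15, numpy 2.4.6, pandas 2.3.3 and matplotlib 3.10.9. A further allele that all groups share is not reported here.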

Additional observations from a re-analysis of the deposited data

Results flagged for a closer look

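In 4 of the 90 groups of 5 tumours examined, the highest or lowest tumour stood apart from the other tumours of its group by Dixon's ratio at the 95% level, a result that chance gives in about 1 of 20 groups. Mrpl10 was at 37.8 in KPT 1 against 30.5 to 32.3 in the other KPT tumours. Mrpl28 was at 77.95 in KPT 1 against 58.2 to 63.3. Mrps6 was at 20.6 in KAT 1 against 12.9 to 15.1 in the other KAT tumours. The members' mean log2 level was 8.83 in KAT 3 against 8.90 to 8.92 in the other KAT tumours.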

How the results depend on the processing

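The count of members lower in KAT moved from 38 to 18 with the ductal covariate and to 3 with the fibroblast covariate. The count lower in KPAT moved from 20 to 11 with only the 2 groups compared, to 4 and 0 with the ductal and fibroblast covariates and to 13 without KPT 1 and KAT 1. Of all tested genes, 825 were lower in KPAT with only the 2 groups compared and 804 without KPT 1 and KAT 1, against 1232. The cause was not tested. Members higher in KAT moved from 0 to 1 with the ductal covariate and with DESeq2, and members higher in KPAT against KAT from 0 to 3 with DESeq2. Of all tested genes, 1491 were higher in KAT with the ductal covariate and 2921 with DESeq2. In KPAT against KAT 98 of all tested genes were higher with DESeq2. With a correction for exon length and GC content the KAT median was -0.55, where all tested genes shifted to -0.16. The split of all genes in KAT was then 1925 higher and 3847 lower, and in KPAT 1149 and 1747, against 2599 and 2206, and 1520 and 1232, in the main fit. On the deposited scale, which tests 10506 genes, it was 1382 and 1908 in KAT.

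Leaving out each tumour in turn gave 32 to 39 members lower and 0 to 1 higher in KAT (1 without KPT 5 or KPAT 2), 14 to 20 lower and 0 to 1 higher in KPAT (1 without KPT 4), and medians of -0.42 to -0.37, -0.30 to -0.20 and 0.11 to 0.20 in the 3 comparisons. Over all tested genes the lower calls then ran from 1632 to 2229 in KAT and from 770 to 1291 in KPAT. Deviations of same-numbered tumours from their group means had correlations of -0.209 to 0.246. The labels do not say whether the numbers pair the tumours, and these correlations cannot decide it. With the replicate block 34 members were lower in KAT and 15 in KPAT, among 1982 and 1023 genes in all. With the block and the length and GC correction 44 and 16 members were lower, among 3521 and 1446 genes, with a KAT median of -0.55. Of 37 called results of named members, 26 kept the call in all alternatives other than the 2 covariate fits, 3 kept it in all 33, and 0 reversed.

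Values near 0 changed sign. Mrpl10 in KPAT (0.01) was at -0.01 with median-of-ratios scaling, -0.005 with quantile scaling, -0.16 with the fibroblast covariate, -0.12 without KPT 3, KAT 2 and KPAT 5, and -0.09 to 0.06 on leaving out single tumours. Mrps18b in KPAT (0.01) was at -0.0002, -0.06 and -0.11 with median-of-ratios scaling, quantile scaling and the ductal covariate, at -0.03 without KPT 3, KAT 2 and KPAT 5, and at -0.08 to 0.06 on leaving out single tumours. In KAT it was at 0.01 with the fibroblast covariate. Genes with few reads, such as Mrps18c, have the widest counting error.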
